A study of Homo sapiens with 4 samples.

Results

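The genes described here are those whose signal was at least 2-fold higher in miRNA-transfected than in control-transfected cells on all 4 arrays of the series, whichever of the miRNAs was used and in whichever cell line. They were chosen by their measured ratios. For each array, the log2 ratio of the background-subtracted red (Cy5) over green (Cy3) median signal was centred on the median of the array's spots that were well above background in both colours, replicate spots were averaged, and 1 probe was kept per gene name, the one with the brightest mean Cy3 signal. Of 15602 genes measured well above background in both colours on all arrays, 174 had a log2 ratio of 1 or more on every array. YWHAH, RDX and HSPB1 are among them and were left out by the rule, which leaves 171 members. The array carries 30982 gene names in all. The share of measured genes meeting the limits was 1.12%, beside 1.53% (239 genes) that were at least 2-fold lower on all 4 arrays. The genes higher on all arrays thus made up 42.1% of those past either limit. This share was 19.4% with normexp background correction and loess (60 higher and 250 lower) and 94.7% when each array was centred on all spots with a positive ratio (790 higher and 44 lower), so the balance of higher against lower genes depends on the scaling. These counts restate the choice of the members and carry no test.

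The series compared what miR-489 and miR-504 do to mRNA levels 72 h after transfection. FaDu (hypopharyngeal squamous cell carcinoma) and HSC3 (tongue squamous cell carcinoma) cells received a mature miR-489 or miR-504 precursor molecule, and the control cells of the same line received a negative control miRNA with the same lipid reagent. Each of the 4 pairings, FaDu with miR-489, FaDu with miR-504, HSC3 with miR-489 and HSC3 with miR-504, was hybridised once, with the miRNA transfectant in Cy5 and the control transfectant in Cy3. No array repeats a condition and no array has the dyes swapped, so a probe that takes up more Cy5 than Cy3 label and a transcript that is higher after transfection cannot be told apart from the ratio of that probe alone. Both control channels of a line may hold the same RNA, which the labels do not state.

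All 4 arrays lie on 1 slide scanned at 1 time. Between 58.2% and 59.3% of spots were well above background in Cy3 and between 61.2% and 62.6% in Cy5, and 118 to 137 spots per array carried an outlier flag. Of the squamous epithelial marker genes on the array, 9 of 9 were well above background in the control channel of both lines, and 1 of 10 markers of other cell types (GFAP) was. The SD between repeated spots of a probe, over 189 probes with at least 5 spots, was 0.07 to 0.08 on the log2 scale.

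A miRNA lowers the stability or translation of mRNAs that pair with its seed, bases 2 to 8, so transcripts that rise after transfection are ordinarily not its direct targets. The labels do not name the arm of either miRNA. The mature sequences below are from RefSeq (GRCh38.p14), with the seed in capitals, and are shown to set the seeds side by side. The same direction of the members' ratios after both miRNAs was fixed by the choice of the genes and is no finding.
hsa-miR-489-3p (chr7:93483947-93483968, minus strand): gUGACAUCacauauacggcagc
hsa-miR-504-5p (chrX:138667760-138667781, minus strand): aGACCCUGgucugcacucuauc
The seeds UGACAUC and GACCCUG differ.

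Over the 171 members, the mean log2 ratio of the 4 arrays ran from 1.05 to 2.25 with a median of 1.30, a 2.45-fold higher signal in the miRNA transfectants. The array medians of the members were 1.33 in FaDu with miR-489, 1.29 in FaDu with miR-504, 1.32 in HSC3 with miR-489 and 1.25 in HSC3 with miR-504, against 0.02 to 0.03 for all measured genes. Only 13 members reached 1.5 on every array, 35 had a mean of at least 1.5, and 60 had their lowest array under 1.1. The range over the 4 arrays was 0.28 at the median and under 0.3 for 101 members, and 1.19 at most.

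**Figure D1:**
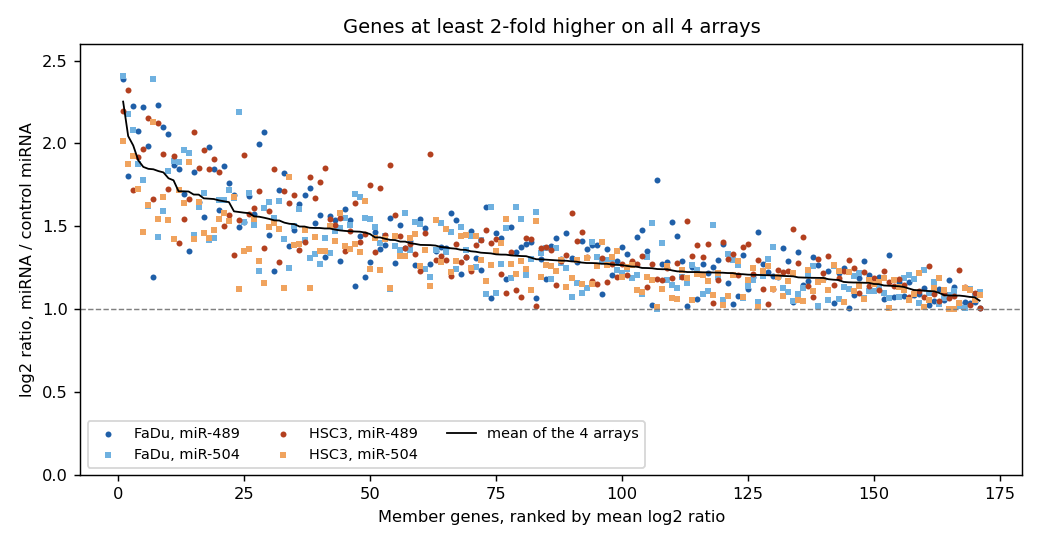
Log2 ratio of miRNA over control transfectant (vertical axis) for each of the 171 members, ranked by their mean (horizontal axis). Points are single arrays, the black line is the mean of the 4 arrays and the dashed line is the 2-fold limit of 1. Most members lie between 1 and 1.5, and the means fall from 2.25 to 1.05.

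The highest member was LOC284361, now named EMC10 in RefSeq, a subunit of the endoplasmic reticulum membrane protein complex, which inserts proteins into that membrane. Its log2 ratios were 2.39 in FaDu with miR-489, 2.41 in FaDu with miR-504, 2.20 in HSC3 with miR-489 and 2.01 in HSC3 with miR-504. The mean was 2.25 ± 0.18 (SD over 4 arrays), a 4.76-fold higher signal, and LOC284361 was the single member at or above 4-fold on all 4 arrays. EIF4EBP1, the repressor that binds the cap-binding protein eIF4E and blocks translation, measured 2.07, 1.87, 1.92 and 1.73 in the same order of arrays. IRF2BP1, a transcriptional co-repressor and partner of IRF2, measured 2.22, 1.78, 1.97 and 1.47. POLR3E, a subunit of RNA polymerase III, the enzyme that makes tRNAs and 5S rRNA, measured 2.23, 1.43, 2.12 and 1.54. In IRF2BP1 and POLR3E both miR-489 arrays lay above both miR-504 arrays (limma adjusted p = 0.223 and 0.0725).

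TNRC6A, the Argonaute-binding scaffold that recruits the deadenylase complex in miRNA silencing, measured 2.06, 1.83, 1.73 and 1.54. SLC41A1, a magnesium transporter, measured 2.10, 1.59, 1.93 and 1.67. PMM2, which makes mannose 1-phosphate for protein glycosylation, measured 1.83, 1.45, 2.07 and 1.42. ELOVL7, a fatty acid elongase, measured 1.84, 1.89, 1.40 and 1.72. SLC41A1 and PMM2 were higher on both miR-489 arrays than on both miR-504 arrays (limma adjusted p = 0.193 and 0.141). ELOVL7 was lowest in HSC3 with miR-489. Kua-UEV, a read-through transcript now named PEDS1-UBE2V1, measured 1.99, 1.62, 2.15 and 1.63. The other members among the 15 highest have no established gene name on the array. They are the cDNA clones BQ017638, BG571083, BU616488 and AV739766, the cluster THC2248354, and C2orf31, with means of 2.04, 1.99, 1.71, 1.71, 1.84 and 1.78. Without background subtraction the means of BQ017638, BG571083, BU616488 and ELOVL7 fell to 1.55, 1.14, 1.17 and 1.01. Those of IRF2BP1, C2orf31, AV739766, SLC41A1 and TNRC6A fell to 1.40, 1.40, 1.48, 1.78 and 1.73. Those of LOC284361, EIF4EBP1, Kua-UEV, THC2248354, POLR3E and PMM2 rose. BG571083, BU616488, THC2248354 and ELOVL7 did not stay at 1 or above on every array under all 7 other signal settings. Among the 15 highest, only Kua-UEV, POLR3E and C2orf31 had a second probe of the gene well above background on all arrays. The means of these second probes were 1.75, 0.21 and -0.10. The others, including LOC284361, EIF4EBP1, IRF2BP1, TNRC6A, SLC41A1, PMM2 and ELOVL7, rest on a single probe without a dye swap. Whether unequal dye uptake adds to their ratios was not tested.

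**Figure D2:**
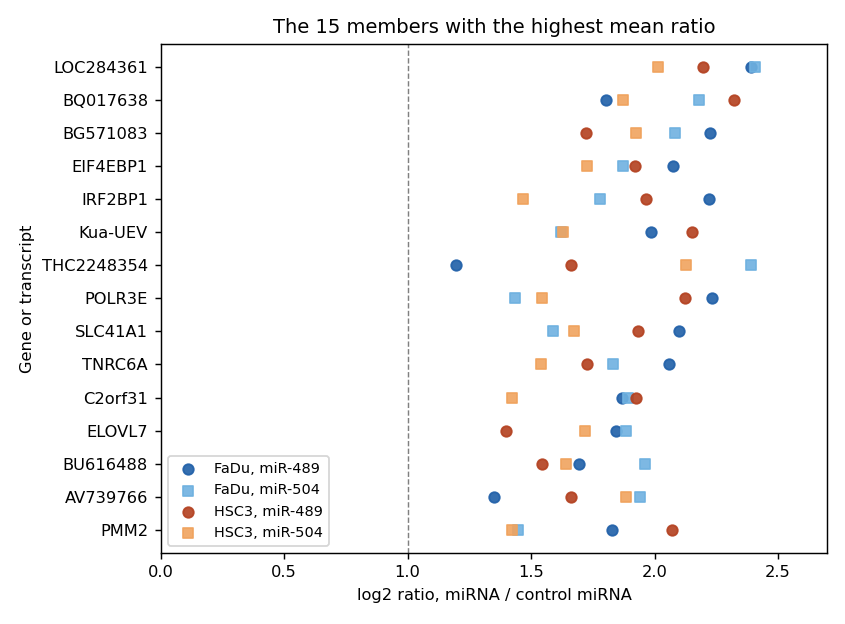
Log2 ratio of miRNA over control transfectant (horizontal axis) on each of the 4 arrays for the 15 members with the highest mean (vertical axis). Circles are miR-489, squares miR-504, blue FaDu and red or orange HSC3, and the dashed line is the 2-fold limit. LOC284361 lies between 2.01 and 2.41, while THC2248354 spreads from 1.20 to 2.39.

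At the limit, the 3 members with the smallest lowest value were TOP1MT (1.00053 on its lowest array), BCAT2 (1.0007) and the unnamed probe A_24_P212611 (1.00336). The 3 genes that just missed were PRDX5 (0.999415), PROSC (0.997355) and SF3B3 (0.993371). PRDX5, a peroxiredoxin, had a mean of 1.10 and BCAT2, the mitochondrial branched-chain aminotransferase, a mean of 1.08, so neighbours on either side of the limit differed by less than the SD between spots.

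RefSeq promoters (250 bases before to 50 after the annotated start) are shown for 4 of the highest members, to set side by side the start regions of genes with high ratios on the same arrays. The letters GGGCGG or its reverse complement CCGCCC, the GC box, are in capitals, found by search on both strands.
LOC284361/EMC10 (chr19:50476257-50476556, plus strand, GRCh38.p14): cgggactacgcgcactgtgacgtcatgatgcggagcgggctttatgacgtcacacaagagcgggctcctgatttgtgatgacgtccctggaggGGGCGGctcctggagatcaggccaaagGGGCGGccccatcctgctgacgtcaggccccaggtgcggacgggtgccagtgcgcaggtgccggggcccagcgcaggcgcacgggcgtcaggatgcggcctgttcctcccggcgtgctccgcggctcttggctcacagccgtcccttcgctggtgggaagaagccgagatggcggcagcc
IRF2BP1 (chr19:45886092-45886391, minus strand, GRCh38.p14): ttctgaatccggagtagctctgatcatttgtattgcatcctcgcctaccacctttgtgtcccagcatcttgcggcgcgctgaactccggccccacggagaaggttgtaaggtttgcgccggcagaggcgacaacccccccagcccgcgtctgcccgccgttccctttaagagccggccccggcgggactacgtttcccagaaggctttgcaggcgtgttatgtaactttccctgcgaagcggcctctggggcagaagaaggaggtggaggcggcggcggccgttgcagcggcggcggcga
POLR3E (chr16:22297159-22297458, plus strand, GRCh38.p14): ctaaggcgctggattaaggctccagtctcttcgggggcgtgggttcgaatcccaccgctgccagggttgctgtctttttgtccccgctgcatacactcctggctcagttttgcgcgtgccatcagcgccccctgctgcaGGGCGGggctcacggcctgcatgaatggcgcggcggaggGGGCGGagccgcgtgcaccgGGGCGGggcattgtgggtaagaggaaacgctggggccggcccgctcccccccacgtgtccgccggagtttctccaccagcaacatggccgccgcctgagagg
SLC41A1 (chr1:205813149-205813448, minus strand, GRCh38.p14): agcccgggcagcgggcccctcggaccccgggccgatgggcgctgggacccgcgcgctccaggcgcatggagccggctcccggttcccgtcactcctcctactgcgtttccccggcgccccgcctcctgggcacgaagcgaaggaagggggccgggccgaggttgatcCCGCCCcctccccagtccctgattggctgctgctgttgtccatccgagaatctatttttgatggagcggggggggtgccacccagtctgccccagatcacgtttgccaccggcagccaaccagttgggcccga
The 4 windows are 68.7%, 63.3%, 68.0% and 70.3% G or C, and hold 2, 0, 3 and 1 GC boxes. A cyclic AMP response element, TGACGTCA (its own reverse complement), occurs 3 times in the LOC284361 window and in none of the other 3.

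Over the members, 108 were matched to RefSeq by accession or symbol and 89 had a promoter. Their median G or C content was 66.3% (quartiles 61.0% and 73.3%), against 65.3% over 8584 promoters of measured genes and 58.3% over all 27305. A GC box was found in 75.3% of the members' promoters, 70.7% of those of measured genes and 44.6% of all. The ETS-type letters CCGGAAG, on either strand, were found in 23.6%, 20.7% and 10.7%. TGACGTCA was found in 1 member (1.12%), in 3.33% of the promoters of measured genes and in 1.98% of all. The members' start regions were therefore close to those of the genes these cells express, and the motif matches describe letters only.

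By chromosome, 22 of the 108 matched members (20.4%) lie on chromosome 19, which holds 6.94% of the matched measured genes. Chromosome 17 holds 11 members (10.2%, against 6.29%) and chromosome 16 holds 10 (9.26%, against 4.78%). The chromosome 19 members include LOC284361, IRF2BP1, COPE, SGTA, ZNF580, TGFB1, RPS15 and NDUFB7.

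Because no dyes were swapped, the other probes of the same genes were compared. A second probe of the gene was well above background on all arrays for 41 members, and 52 members have one on the array at any brightness. The median of the second probes' mean log2 ratios was 0.80 (quartiles 0.34 and 1.13), against 1.32 for the brightest probes of the same 41 genes and 0.04 for the second probes of all 3928 genes that have one. For 39 genes that are no members though their brightest probe had a mean of at least 1, the median of the second probes was 0.47. By array the median of the members' second probes was 0.85, 0.77, 0.88 and 0.82. The second probe reached 1 on all 4 arrays in 10 of 41 members (24.4%), against 0.967% of all genes with a second probe. It was above 0 on all arrays but under 1 on at least 1 array in 23, of mixed sign in 7 and below 0 on all arrays in 1. The probes of a gene read the same RNA and arrays and are no replicates of each other. Members were chosen by a high ratio of the brightest probe, so that ratio being above the second in 36 of 41 members is no finding.

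**Figure D3:**
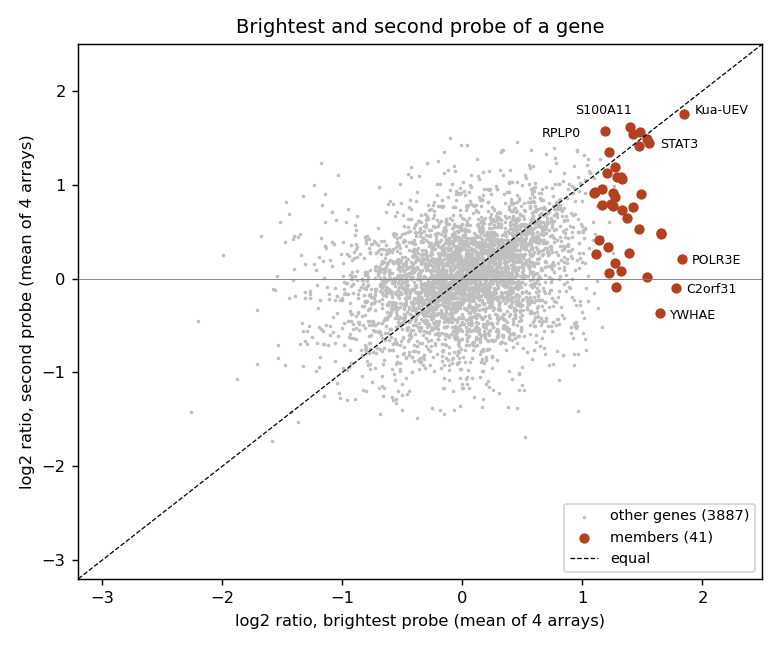
Mean log2 ratio over the 4 arrays of the brightest probe (horizontal axis) and of the second probe of the same gene (vertical axis), for 41 members (red) and 3887 other genes (grey). The dashed line marks equal values. Second probes of the members run from -0.37 (YWHAE) to 1.75 (Kua-UEV), with 33 above 0 on all 4 arrays.

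The 8 highest second probes were those of Kua-UEV, S100A11, RPLP0, COPE, BX115105, LOC339745, STAT3 and RPL29. RPLP0, a ribosomal stalk protein that is often taken as a reference gene, measured 1.18, 1.17, 1.22 and 1.18 with its brightest probe and 1.57, 1.54, 1.59 and 1.58 with the second. S100A11, a calcium-binding protein of keratinocytes, measured 1.26, 1.52, 1.33 and 1.45 with the first and 1.48, 1.75, 1.58 and 1.67 with the second. COPE, the epsilon subunit of the COPI vesicle coat, measured 1.54, 1.47, 1.505 and 1.41 with the first and 1.52, 1.54, 1.73 and 1.47 with the second. In these genes both probes lay above 2-fold on all 4 arrays. With other processing the mean of the brightest RPLP0 probe was 0.85 with loess, 0.70 with the scanner's ratio and 1.34 without background subtraction. The brightest probes of S100A11 and COPE stayed at 1 or above on every array under all 7 other signal settings.

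STAT3, the transcription factor downstream of interleukin-6 family cytokines, measured 1.99, 1.23, 1.71 and 1.29 with its brightest probe and 1.97, 1.16, 1.53 and 1.15 with its second. Both STAT3 probes gave the higher ratios on both miR-489 arrays. RPL29, a ribosomal protein of the large subunit, measured 1.60, 1.55, 1.35 and 1.38, and its second probe 1.51, 1.48, 1.33 and 1.34. LOC339745, now named SPOPL, an adaptor of cullin ubiquitin ligases, had means of 1.54 and 1.49 with its probes, and the unnamed cDNA BX115105 had 1.42 and 1.54.

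The 5 lowest second probes had means between -0.37 and 0.06. YWHAE, a 14-3-3 adaptor protein, measured 1.76, 1.72, 1.57 and 1.53 with its brightest probe and -0.38, -0.20, -0.46 and -0.45 with its second. C2orf31 measured 1.87, 1.89, 1.93 and 1.42 with the first and -0.35, 0.10, 0.03 and -0.18 with the second. DRAP1, a corepressor that blocks assembly of the RNA polymerase II initiation complex, had means of 1.28 and -0.09, SGTA, a co-chaperone of membrane proteins, 1.53 and 0.02, and EHD2, a protein of caveolae, 1.22 and 0.06. POLR3E, among the highest members by its brightest probe, measured 0.75, 0.31, -0.14 and -0.08 with its second. The probes' positions within their transcripts were not used here, so whether the probes read different transcripts, or take up the dyes unequally, was not tested.

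By role, 93 of the 171 members were assigned to 6 groups, after the members were seen, and 78 have no assigned role or no gene name. There were 23 members of RNA processing and transcription (median of means 1.34), 15 of membrane traffic, folding and turnover (1.45), 15 of cytoskeleton, junction and surface (1.32), 14 of mitochondria and metabolism (1.30), 13 of signalling (1.34) and 13 of translation (1.22). Of all members, 110 carry a RefSeq accession and 20 are named only by their probe number.

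Among the translation genes, 7 of 81 measured ribosomal protein genes (8.64%) were members, among them RPL29, RPS15, RPLP0, RPL7A, RPL13 and RPL6, with means from 1.10 to 1.47. The median over all 81 was 0.24, from -0.69 to 1.47, and 54 were above 0 on all arrays. A further 6 members are described on the array as similar to a ribosomal protein, and near-identical copies and their parent genes may share hybridisation signal. EIF4A1, the RNA helicase of the eIF4F cap complex, measured 1.28, 1.17, 1.25 and 1.26. In the eIF4F group, EIF4EBP1 and EIF4A1 were the 2 members among 11 genes measured, with a group median of 0.24. EIF4EBP2, the close relative of EIF4EBP1, was lower on all arrays, at -1.61, -0.45, -1.58 and -0.61. EIF4E, the cap-binding protein, measured -0.22, -0.31, -0.27 and -0.30.

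Among RNA processing genes, SNRPC and SNRPB, proteins of the spliceosomal small ribonucleoproteins, were the 2 members of 12 such genes measured. SNRPC, of the U1 particle, measured 1.45, 1.64, 1.59 and 1.496, and SNRPB, of the Sm ring, 1.57, 1.27, 1.77 and 1.35. The other Sm and U1 or U2 proteins were not alike: SNRPA had a mean of 0.84, SNRPD3 of -0.37 and SNRPE of -0.73. CPSF3, the endonuclease that cuts pre-mRNA before polyadenylation, measured 1.35, 1.09, 1.28 and 1.05 and was 1 of 18 polyadenylation and decay genes, whose median was 0.12. TNRC6A was the single member among 6 measured TNRC6 and Argonaute genes. Its relatives TNRC6B and TNRC6C had means of 0.02 and -0.71.

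POLR3E was 1 of 10 measured RNA polymerase III subunits. POLR3C, which had a mean of 1.01, just missed the limit (0.89, 1.07, 1.07 and 0.9998), and the median of the 10 was -0.05. IRF2BP1 was 1 of 3 in its family, and its relatives IRF2BP2 and C14orf4, another IRF2-binding protein, had means of -0.31 and -0.83. Among the 6 genes measured of the STAT family with IRF9, STAT3 and ISGF3G (now IRF9, a DNA-binding partner of STAT proteins in interferon signalling) were members. ISGF3G measured 1.02, 1.52, 1.27 and 1.17, STAT6 0.95, 1.18, 1.10 and 0.95, and STAT2 0.05, -0.57, -0.52 and -0.44. Thus ISGF3G and STAT6 were above 0 on all arrays while STAT2 was below 0 on 3 of 4.

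In the COPI coat COPE was the single member of 9 genes measured, whose median was 0.15. NDUFB7 (mean 1.27) and NDUFB11 (mean 1.23) were members among 11 NDUFB subunits of respiratory complex I, whose median was -0.05. NDUFB8 was below 0 on all arrays with a mean of -0.69. Of the COPI genes 5 were above 0 on all arrays and 1 below 0 on all, and COPB1, the highest after COPE, had a mean of 0.75. Of the NDUFB genes 2, both members, were above 0 on all arrays and 5 below 0 on all. Centring on all spots with a positive ratio raises each ratio by 0.34 to 0.43, so a value slightly below 0, in all groups named here and among the second probes (that of YWHAE on both FaDu arrays), is above 0 under that centring. No member was found among the measured CDK inhibitors (8 genes, median -0.10), KLF and SP factors (12, 0.10), Mediator subunits (22, 0.11), immediate early genes (13, 0.51), genes of the integrated stress response (14, 0.06) or p53 targets (16, 0.06), where all measured genes had a median of 0.02. As 1.12% of all measured genes met the limits, groups of this size would hold few or no members at that share. JUND, SP2, FAS, ZFP36 and KLF6 came near the limit, with means of 1.02, 1.03, 0.95, 0.87 and 0.99. Their lowest arrays were 0.95, 0.94, 0.89, 0.82 and 0.79. FAS is a p53 target. In contrast, 1 of the KLF and SP factors and 2 p53 targets were at least 2-fold lower on all arrays. Of the 16 p53 targets, 5 were above 0 on all arrays and 3 below 0 on all. RPLP0 was 1 of 8 reference genes (median 0.29).

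**Figure D4:**
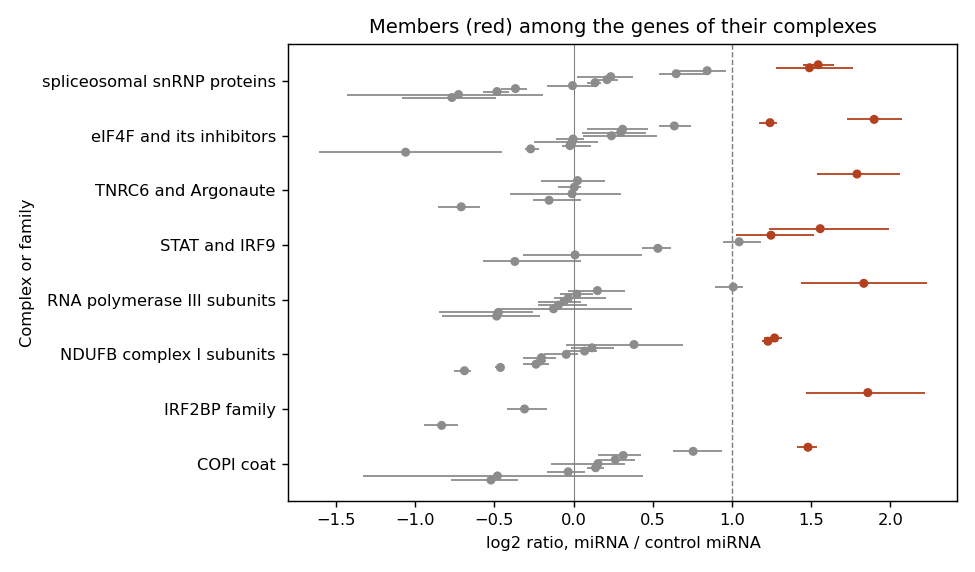
Mean log2 ratio of miRNA over control transfectant (points, horizontal axis) with the lowest and highest of the 4 arrays (lines) for the measured genes of 8 complexes or families (vertical axis). Members are red and other genes grey, and the dashed line is the 2-fold limit. Each group holds 1 or 2 members, with other genes of the same group below 0 in the centring used, though those nearest to 0 lie above it when all spots with a positive ratio are used.

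Several members encode structural or secreted proteins. JUP, plakoglobin of desmosomes and adherens junctions, measured 1.47, 1.49, 1.34 and 1.43. LMNA, the nuclear lamin A/C, measured 1.46, 1.10, 1.42 and 1.35, and its second probe averaged 1.06. LGALS1 and LGALS3, galectins that bind beta-galactosides, had means of 1.27 and 1.30. TGFB1, the growth factor, measured 1.27, 1.20, 1.12 and 1.23, and MDK, the heparin-binding growth factor midkine, 1.44, 1.67, 1.41 and 1.34. All single-array values of these genes lay between 1.10 and 1.67.

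The members were compared by their level in the control cells of each line. After scaling each array to its 75th percentile, the control signal differed at least 2-fold between the lines in 39 members (22.8%), 15 higher in FaDu and 24 higher in HSC3, against 21.5% of all measured genes. ALDH1A3, a retinaldehyde dehydrogenase, was 3.53 higher in FaDu on the log2 scale in the control channel, and its ratios were 1.34 and 1.62 in FaDu and 1.12 and 1.21 in HSC3. ECM1, a secreted matrix protein, was 3.55 lower in FaDu (log2), with ratios of 1.04 and 1.05 in FaDu and 1.48 and 1.22 in HSC3. EMP2, a tetraspan membrane protein, was 2.997 higher in FaDu (log2), with ratios of 1.53, 1.52, 1.93 and 1.35. The members spanned the brightness range, with 21, 49, 40 and 61 in the quartiles of measured genes from dimmest to brightest. The median ratio of all genes in those quartiles was -0.18, 0.06, 0.10 and 0.09.

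The contrast of miR-489 with miR-504, with the lines as replicates, was not used to choose the members, although the lower limit of 1 on every array restricts how far they can differ. It was fitted with limma over 20749 probes well above background on all arrays. No member passed an adjusted p of 0.05, beside 225 of the 20749 probes (1.08%, 71 higher and 154 lower after miR-489). At an unadjusted p under 0.05 there were 22 members (12.9%), against 18.6% of all probes. With the cell line as a block 595 probes and again 0 members were called. The members' median standard error was 0.12 (log2), and their differences ran from -0.83 to 0.69. Before the fit, 66 members (38.6%) were higher after miR-489 in both lines, 29 (17%) after miR-504 in both, and 76 (44.4%) differed in opposite directions. Over all 15602 measured genes these shares were 35.4%, 29.7% and 34.9%. The median difference was 0.03 in the members and 0.02 in all measured genes.

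Among the members' brightest probes POLR3E had the smallest adjusted p in this contrast, at 0.69 ± 0.12 (SE, log2) higher after miR-489 by limma (adjusted p = 0.0725). It was 0.80 higher in FaDu and 0.58 higher in HSC3. It was called with normexp background correction (adjusted p = 0.0317), without background subtraction (0.0492) and among bright probes alone (0.00983). Its second probe differed by 0.44 in FaDu and -0.06 in HSC3 (limma adjusted p = 0.808). STAT3 was 0.59 ± 0.14 higher after miR-489 (SE, limma adjusted p = 0.122), and its second probe 0.59 ± 0.17 (adjusted p = 0.174). Kua-UEV differed by 0.44 with its first probe (limma adjusted p = 0.153) and 0.51 with its second (adjusted p = 0.112). By line, STAT3 differed by 0.76 in FaDu and 0.42 in HSC3 with its first probe and by 0.81 and 0.38 with its second, all higher after miR-489. In TREX1 and EHD2 the probes went opposite ways. Their brightest probes gave -0.15 and -0.15 (limma adjusted p = 0.605 and 0.714). Their second probes gave 0.67 and 0.53 (limma adjusted p = 0.0682 and 0.1045). None of these contrasts of STAT3, Kua-UEV, TREX1 and EHD2 passed the threshold.

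In the other direction, THC2248354 was 0.83 ± 0.20 lower after miR-489 than after miR-504 (SE, limma adjusted p = 0.125), from 1.20 against 2.39 in FaDu and 1.66 against 2.13 in HSC3. AK096415, an unnamed cDNA, measured 1.07, 1.59, 1.02 and 1.53, lower after miR-489 by the same amount in both lines (-0.52 and -0.51, limma adjusted p = 0.105). C19orf20 (now TPGS1, a subunit of tubulin polyglutamylase) measured 1.18, 1.49, 1.10 and 1.55, and AV739766 1.35, 1.94, 1.66 and 1.89. BC030112 measured 1.73, 1.31, 1.80 and 1.13 and BX115105 1.55, 1.12, 1.87 and 1.13, both higher on the miR-489 arrays.

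**Figure D5:**
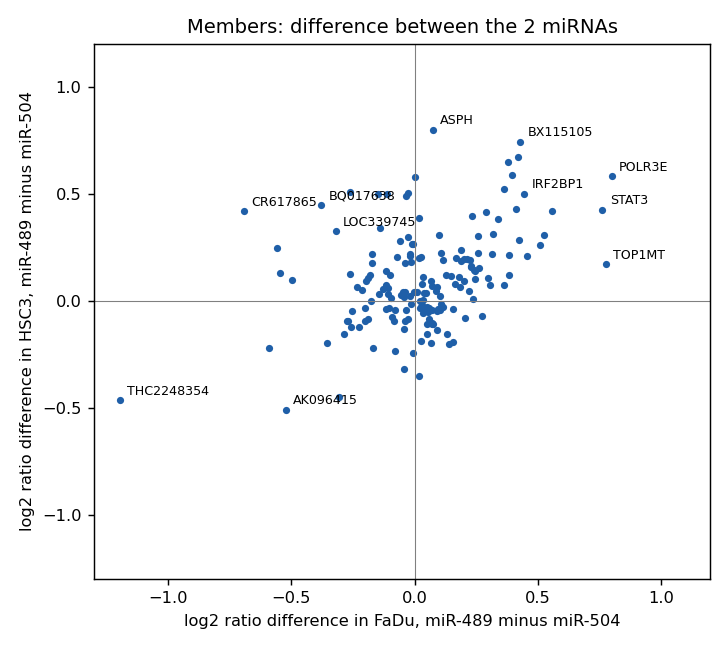
Difference in log2 ratio between miR-489 and miR-504 in FaDu (horizontal axis) and in HSC3 (vertical axis) for the 171 members, each point 1 gene. POLR3E and STAT3 lie at the upper right, THC2248354 and AK096415 at the lower left, and CR617865 at -0.69 in FaDu and 0.42 in HSC3.

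Between FaDu and HSC3, with the miRNAs as replicates, limma called 0 of 20749 probes (0%) and 0 members, with 652 probes and 2 members at an unadjusted p under 0.05. With the miRNA as a block it again called 0 probes. Arrays of a line may share their control RNA, so this contrast may understate the error. CYB5R4, a cytochrome b5 reductase, measured 2.07 and 1.61 in FaDu and 1.37 and 1.16 in HSC3, a difference of 0.58 ± 0.21 (SE, limma adjusted p = 0.9998). SELM, the endoplasmic reticulum selenoprotein now named SELENOM, measured 1.38 and 1.25 in FaDu and 1.64 and 1.79 in HSC3, lower by 0.40 ± 0.14 in FaDu (SE, limma adjusted p = 0.9998). BG571083, among the 15 highest, measured 2.22 and 2.08 in FaDu and 1.72 and 1.92 in HSC3, a difference of 0.33 ± 0.15 (SE, limma adjusted p = 0.9998). ASPH, the aspartate beta-hydroxylase, measured 1.27, 1.20, 1.94 and 1.14, high on the HSC3 array with miR-489 alone, and its second probe measured 0.31, 0.07, 0.45 and 0.24. TOP1MT, the mitochondrial topoisomerase, measured 1.78 in FaDu with miR-489 and 1.0005 to 1.18 on the other 3 arrays.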

How the data were processed

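RNA of FaDu and HSC3 transfectants was measured on 4 Agilent 44K 2-colour arrays. The authors deposited the scanner output of Feature Extraction 9.5.3.1 (per the file headers), whose columns used here are spot and background intensity in each colour, flags, and the software's log10 ratio, and a table of log10 ratios that equals it. The study's methods describe median background-subtracted log2 ratios with global normalisation. Control spots and spots with an outlier flag were left out. The log2 ratio of the median signals minus the median backgrounds was centred on the median of spots well above background in both channels, which removed 0.45 to 0.65 per array. A probe counted as well above background only if all its kept spots were. Contrasts were fitted with limma 3.58.1 in R 4.3.3 (lmFit and eBayes, Benjamini-Hochberg adjustment over all probes) with 2 residual degrees of freedom, and the script was tested on simulated data. Each condition has 1 array, so p-values measure the spread between lines or between miRNAs, and with so few arrays the precision is low. Python 3.11.15 made the other tables.

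Named members are the 15 highest by mean, the 8 highest and 5 lowest second probes, the 4 most extreme at each end of both contrasts, the 3 genes on either side of the limit and the members of the 12 gene lists. Others named in the text, the role groups, the gene families and the promoter motif TGACGTCA were picked after the values were seen. The members and lists were chosen with earlier results of these data known. Alternatives were other background corrections and spot summaries, loess (span 0.3), normexp (offset 50), the scanner's ratio, other centring, probe and brightness choices, 1.5- and 4-fold limits, blocks, and leaving out each array. Gene names are those of the array, with current symbols from RefSeq (GRCh38.p14) where the accession matched.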

Additional observations from a re-analysis of the deposited data

Results flagged for a closer look

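For 3 named members the difference between miR-489 and miR-504 ran in opposite directions in the lines, with both differences beyond 0.23 (log2), a limit set from the SD between repeated spots. The cDNA BQ017638 was -0.38 in FaDu and 0.45 in HSC3, a gap of -0.83. LOC339745 was -0.32 and 0.33, a gap of -0.65. CR617865 was -0.69 and 0.42, a gap of -1.11. The second probe of LOC339745 measured 1.37, 1.64, 1.76 and 1.19 on the arrays FaDu with miR-489, FaDu with miR-504, HSC3 with miR-489 and HSC3 with miR-504. Of all members 5 (2.92%) passed this limit, against 3.38% of all measured genes. With 1 array per condition the difference between the lines was not tested.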

How the results depend on the processing

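The number of members, 171, came to 153 with normexp, 200 without background subtraction, 177 with mean signals, 116 with loess, 139 with the scanner's log10 ratio or the deposited table, 150 with the mean of a gene's probes and 171 without a filter on dim probes. It moved to 57 with normexp and loess together, 95 among bright probes, 787 when centred on all spots with a positive ratio, 952 at 1.5-fold and 1 at 4-fold. Centring on all such spots raised the median of measured probes by 0.34 to 0.43, and normexp with loess lowered it by 0.09 to 0.12. Of the 171 members, 53 stayed at 1 or above on every array under all 7 other signal settings. Without each array in turn the number was 190 to 207.

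The median of the members' second probes, 0.80, was 0.90 without background subtraction, 0.66 with loess, 0.60 with normexp and loess, 0.64 with the scanner's ratio, 1.18 with centring on all spots, 0.69 without a filter on dim probes (52 members), 0.94 among bright probes (18 members) and 0.80 to 0.87 without each array in turn. Between miR-489 and miR-504, members called rose from 0 to 1 with normexp and 1 without background subtraction (POLR3E in both), 3 with normexp and loess (POLR3E, AK096415 and THC2248354) and 4 among bright probes (POLR3E, PMM2, Kua-UEV and THC2248354). The paired fit, with the cell line as a replicate block, called 0 members but 595 probes in place of 225, and without each array in turn 0 probes were called. All probes called were 650 with normexp, 484 without background subtraction, 339 with loess, 782 with normexp and loess, 408 with the scanner's ratio, 529 among bright probes and 0 without a filter on dim probes. Between FaDu and HSC3, 0 members were called in every fit. Under the 7 other signal settings, 104 of 273 recomputed means of the 39 named members moved by more than the SD over arrays. The cause of these shifts was not tested.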
